A study of Mus musculus with 12 samples.

Results

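The regulators described here are 10 genes that govern fuel use and mitochondrial content in heart muscle: the peroxisome proliferator-activated receptors Ppara and Ppard, their partner Rxra, the estrogen-related receptors Esrra, Esrrb and Esrrg, the coactivators Ppargc1a and Ppargc1b, the mitochondrial transcription factor Tfam and the Krüppel-like factor Klf15. They were taken by name from the 27179 genes of the deposited count table, all 10 were found by their Entrez gene number, and all 10 passed the filter on low counts. The table holds bulk RNA sequencing of 12 mouse hearts collected at 15 weeks of age, 3 in each of 4 groups. The groups were diesel exhaust before birth with transverse aortic constriction (TAC) in adult life, diesel exhaust with a sham operation, filtered air with TAC, and filtered air with a sham operation. Dams breathed diesel exhaust or filtered air from embryonic day 0.5 until late in the pregnancy, all offspring then lived in filtered air and had echocardiography at 11 weeks, and surgery followed at 12 weeks. TAC narrows the aorta, here against a 27-gauge needle, and so raises the pressure that the left ventricle works against. The sources used here do not give strain, sex, litter, sequencing run or hour of harvest. The exposure acted on dams, so pups of 1 dam within a group would make the p-values for exposure too small, and the p-values here measure the spread between these 12 hearts.

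PPARα and PPARδ are nuclear receptors that sense fatty acids and, paired with a retinoid X receptor such as RXRα, switch on genes of fatty acid uptake and oxidation. The estrogen-related receptors have no known natural hormone and drive genes of the citric acid cycle and the respiratory chain. PGC-1α and PGC-1β, encoded by Ppargc1a and Ppargc1b, bind no DNA themselves and raise the activity of both receptor families. TFAM, encoded by a nuclear gene, enters mitochondria, where it packs and transcribes mitochondrial DNA. KLF15 is abundant in heart muscle, controls use of lipids and branched-chain amino acids, and follows the circadian clock in mice. The adult heart lives mainly on fatty acids, and this program is known to decline in pressure overload.

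The promoters of Klf15 and Rxra are shown because each held a motif found in no other promoter window of the regulators. RefSeq promoter windows of build GRCm38.p6, which cover 250 bases before and 50 after a start site, were listed for 9 of the 10 genes, in 14 windows. Both strands were searched for 8 motifs, and the runs below are the 250 bases before the start, 5′ to 3′ on the plus strand. In the Klf15 run (chr6:90462326-90462575) the capitals mark CACGTG, the E-box that clock proteins bind. In the run of the other start site listed for Rxra (chr2:27709042-27709291) they mark AAGGTCA, the core bound by estrogen-related receptors.
Klf15: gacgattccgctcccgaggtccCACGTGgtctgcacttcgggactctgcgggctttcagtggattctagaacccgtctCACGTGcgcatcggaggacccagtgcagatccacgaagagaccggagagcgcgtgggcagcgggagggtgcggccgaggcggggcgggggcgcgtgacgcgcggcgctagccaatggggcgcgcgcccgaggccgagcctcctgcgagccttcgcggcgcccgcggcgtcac
Rxra: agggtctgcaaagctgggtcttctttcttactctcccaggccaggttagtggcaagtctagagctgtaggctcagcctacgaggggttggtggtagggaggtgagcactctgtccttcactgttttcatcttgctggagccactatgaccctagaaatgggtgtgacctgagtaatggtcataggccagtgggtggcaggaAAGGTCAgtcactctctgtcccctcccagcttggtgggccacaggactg

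The Klf15 window held 3 matches to CACGTG, at −228 to −223, at −172 to −167 and at −3 to 2 counted from the start site as 0, and the third spans the end of the run above. No other window of the regulators held this motif. It occurred in 7.15% of all 32851 windows, and 29 windows (0.0883%) held at least 3 matches. AAGGTCA was found in 1 of the 14 windows, that of Rxra at −49 to −43, against 4.72% of all windows, and its last 6 letters are also a match to the receptor core AGGTCA, which 16.3% of windows held. The same Rxra window held AGGTCA once more on the minus strand, at −87 to −82. The longer estrogen-related receptor element TCAAGGTCA (0.423% of all windows), the direct repeat that PPAR and RXR pairs bind (AGGTCA, any base, AGGTCA, 0.0396%) and the clock element TTATGTAA (0.938%) were in none of the 14 windows. The GC box GGGCGG was in 8 windows and the CACCC box CCACCC in 10, against 35.7% and 31.5% of all windows. For CACGTG and AAGGTCA a count of 1 in 14 windows is near the share of all windows and does not set the regulators apart. Only the 3 CACGTG matches within 1 window are rare among all windows. A match is a string of letters and does not show binding, and no match concerns these windows alone.

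Library totals ran from 5534685 to 13265816 counts, and 13626 genes were tested with edgeR. Levels are CPM, the counts scaled to a common library size adjusted by TMM factors. A floor of 3 counts corresponded to 0.218 to 0.501 CPM per library, a limit set by counting error alone. Between 18.3% and 32.4% of a library's counts came from genes of mitochondrial DNA. The labelled tissue carried its markers: all 15 ventricular cardiomyocyte markers were detected, and their summed level was between 88600 and 160000 CPM in every heart. The operation left its mark too, with 7 of 9 hallmark genes of pressure load higher and 2 lower in TAC than in sham hearts averaged over the exposures. Ankrd1, a stress-induced muscle gene, averaged 2940 ± 188 CPM in TAC and 599 ± 197 CPM in sham hearts after diesel exhaust, and 2270 ± 456 CPM in TAC and 619 ± 227 CPM in sham hearts in filtered air (SD, n = 3 each).

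Divided by the length of their exons, the regulators ordered from Ppara at 33.6 ± 8.80 CPM per kilobase to Ppard at 2.38 ± 0.278 CPM per kilobase (SD over the 12 libraries). Ppargc1a followed Ppara at 25.1 ± 11.4 and Esrra came next at 20.2 ± 6.12 CPM per kilobase. Klf15 stood at 13.4 ± 4.52, Ppargc1b at 9.98 ± 2.51 and Rxra at 9.58 ± 1.75 CPM per kilobase. The lowest levels per kilobase above Ppard were those of Tfam (6.69 ± 1.08), Esrrg (6.35 ± 1.26) and Esrrb (5.26 ± 1.04). Some neighbours in this order could not be told apart. Ppargc1a was above Esrra in 7 of 12 libraries, Ppargc1b above Rxra in 7, and Tfam above Esrrg in 6, and in each of these pairs the mean log2 ratio was within its SD (0.24 ± 0.63, 0.04 ± 0.17 and 0.08 ± 0.28). Other steps held in nearly every heart: Esrra was above Klf15, Rxra above Tfam, Esrrg above Esrrb and Esrrb above Ppard in all 12 libraries, and Ppara above Ppargc1a and Klf15 above Ppargc1b in 11. Exon lengths were those of the union of all GENCODE M21 exons, so a gene whose heart transcript uses few of them is understated. The annotation behind the counts is not given, so a gene counted over more exon bases than these is overstated.

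**Figure D1:**
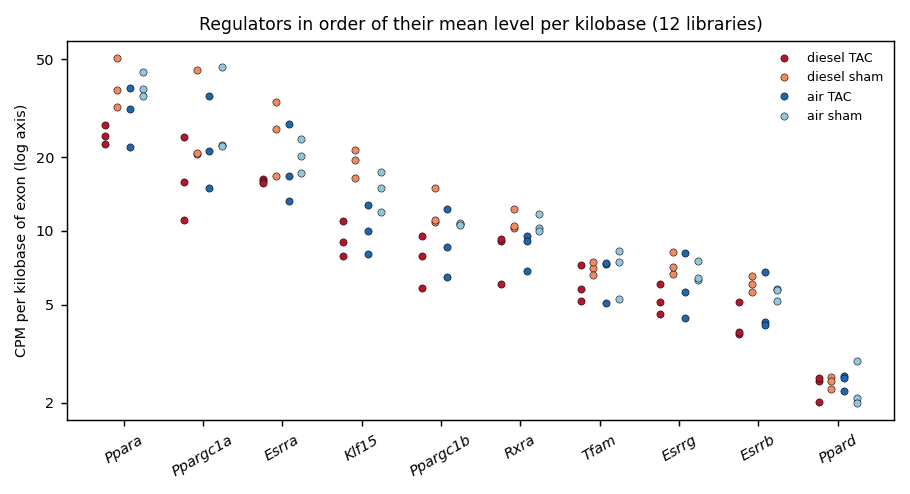
Level of each regulator in each library in CPM per kilobase of exon (log axis), with genes in order of their mean over the 12 libraries and points coloured by group. Ppara stands at 33.6 and Ppard at 2.38 CPM per kilobase on average, and the points of neighbours such as Tfam and Esrrg overlap.

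Klf15 and Ppara were lower in TAC than in sham hearts, and none of the 10 regulators was called higher. Averaged over the exposures, Klf15 fell by 0.77 ± 0.15 on the log2 scale (SE, edgeR adjusted p = 0.00177) and Ppara fell by 0.53 ± 0.14 (adjusted p = 0.0220). These were 2 of the 10 regulators called lower at an adjusted p under 0.05, against 8.01% of all genes called in either direction, 3.91% called lower and 4.10% called higher. After diesel exhaust 1 of 10 passed, Klf15, which was lower, against 3.24% of all genes in either direction and 1.49% lower. In filtered air edgeR called 0 of 10, against 0.829% of all genes, with 1 of the 10 at an unadjusted p under 0.05, where 11.1% of all genes were, and DESeq2 and limma voom also called 0. The unadjusted p was under 0.05 for 7 of 10 regulators after diesel exhaust and 7 of 10 in the average, where 15.9% and 21.6% of all genes were. The median log2 fold change of the 10 was −0.59 after diesel exhaust, −0.19 in filtered air and −0.38 in the average, beside medians of all genes of 0.00, 0.01 and 0.00. The count in the average rested on single hearts. It was 6 of 10 without filtered air TAC replicate 1, and 1 of 10 without filtered air sham replicate 2, filtered air TAC replicate 2, diesel sham replicate 2 or diesel TAC replicate 1. In bulk tissue, fewer cells of a type and less RNA per cell cannot be told apart, and this holds for each fall described here.

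**Figure D2:**
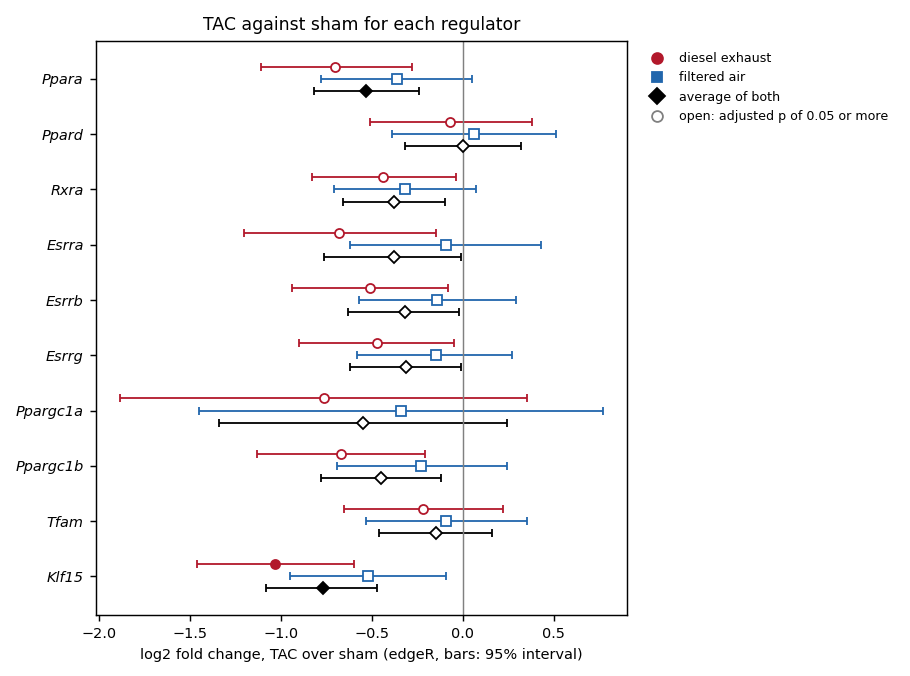
Log2 fold change of TAC over sham for each regulator with its 95% interval, after diesel exhaust (circles), in filtered air (squares) and averaged over both (diamonds), with filled symbols for an adjusted p under 0.05. Klf15 is filled after diesel exhaust (−1.03) and in the average (−0.77), Ppara in the average (−0.53), and the interval of Ppargc1a is the widest of the 10.

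Klf15 showed the deepest fall of the 10. The gene (Entrez number 66277) spans chr6:90461043-90491803 in GRCm38.p6. It stood at 25.2, 30.8 and 22.1 CPM in diesel TAC hearts, against 54.1, 59.8 and 45.7 CPM in diesel sham hearts. Every diesel TAC heart was below every diesel sham heart, and the fitted level was 0.489 times that of sham (log2 −1.03 ± 0.21 SE, edgeR adjusted p = 0.00649). In filtered air it stood at 27.9, 22.6 and 35.8 CPM in TAC hearts, against 41.5, 48.6 and 33.3 CPM in sham hearts. Here the highest TAC heart was above the lowest sham heart, and the log2 fold change of −0.52 ± 0.21 did not pass (adjusted p = 0.341). The TAC groups had like levels, averaging 26.0 ± 4.41 CPM after diesel exhaust and 28.8 ± 6.69 CPM in filtered air, while the sham groups averaged 53.2 ± 7.09 and 41.1 ± 7.68 CPM (SD, n = 3 each). The call after diesel exhaust was lost without diesel TAC replicate 3 (adjusted p = 0.0526). The call in the average held in all 17 alternatives, with a highest adjusted p of 0.00806 without filtered air TAC replicate 2.

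Ppara (Entrez number 19013, chr15:85734910-85806851 in GRCm38.p6), the regulator with the highest level per kilobase, stood at 86.9, 104 and 93.3 CPM in diesel TAC hearts, against 123, 194 and 144 CPM in diesel sham hearts. The groups did not overlap after diesel exhaust, yet the log2 fold change of −0.70 ± 0.20 missed the threshold (adjusted p = 0.0595). In filtered air Ppara stood at 120, 84.5 and 146 CPM in TAC hearts, against 146, 170 and 136 CPM in sham hearts, so that TAC replicate 3 lay among the shams (log2 −0.36 ± 0.20, adjusted p = 0.531). Averaged over both exposures the fitted TAC level was 0.692 times that of sham, and all 6 TAC hearts were below the mean of their own shams. This call was lost without filtered air sham replicate 2 (adjusted p = 0.0593), filtered air TAC replicate 2 (0.0673), diesel sham replicate 2 (0.0579) or diesel TAC replicate 1 (0.0515). After diesel exhaust a call was gained with DESeq2 (0.0364), with no filter on low counts (0.0158) or without filtered air TAC replicate 2 (0.0319).

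Ppard, which answers to fatty acids in many tissues, showed no such shift. It stood at 15.1, 18.3 and 19.0 CPM in diesel TAC hearts, against 19.1, 18.4 and 17.2 CPM in diesel sham hearts. The filtered air TAC hearts had 16.8, 19.3 and 19.0 CPM, against 15.7, 22.2 and 14.9 CPM in filtered air sham hearts. Both pairs of groups overlapped. The average log2 fold change was 0.00 ± 0.15, with a 95% interval of −0.32 to 0.32 and an adjusted p of 0.998, so the data leave room for a change of that size either way. The level per kilobase of Ppara over that of Ppard was 10.7 in diesel TAC hearts and 16.2 in diesel sham hearts, and 12.2 in TAC and 17.0 in sham hearts in filtered air, each a mean of 3 libraries on the log scale.

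Rxra, the dimer partner of both PPARs, was the one regulator whose TAC hearts were all below the sham hearts in both exposures. It stood at 33.4, 49.6 and 50.6 CPM in diesel TAC hearts, against 56.0, 67.4 and 57.3 CPM in diesel sham hearts. In filtered air it stood at 52.3, 37.5 and 49.7 CPM in TAC hearts, against 63.7, 56.1 and 54.4 CPM in sham hearts. The average log2 fold change was −0.38 ± 0.13, beside an SD within groups of 0.23, but it missed the threshold over all genes (adjusted p = 0.0898). It did not pass within either exposure (−0.44 ± 0.19 after diesel exhaust, −0.32 ± 0.19 in filtered air). A complete separation downward was seen for 1 of 10 regulators in filtered air and 7 of 10 after diesel exhaust, where 7.57% and 11.2% of all genes separated that way. With the exposures pooled, every TAC heart was below every sham heart for 1 of 10 regulators, Rxra, against 2.13% of all genes.

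The 7 regulators separated after diesel exhaust were Ppara, Ppargc1b, Esrra, Esrrb, Esrrg, Rxra and Klf15. The 3 whose diesel TAC and sham hearts overlapped were Ppard, Ppargc1a and Tfam. Separation is a looser mark than the adjusted test, which 1 of the 7 passed.

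**Figure D3:**
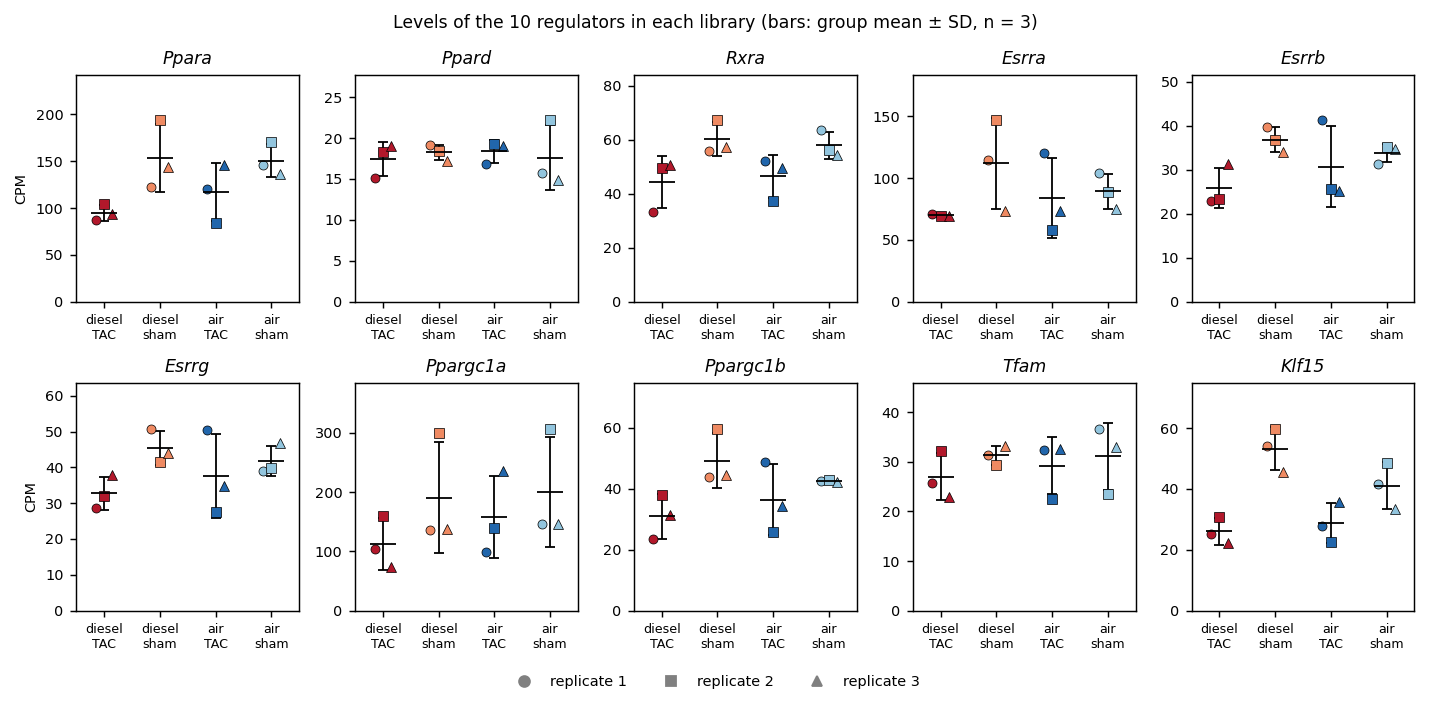
Level of each regulator in every library in CPM, by group from diesel TAC to filtered air sham, with markers for the replicate and bars for the group mean ± SD (n = 3). Klf15 averages 26.0 and 28.8 CPM in the TAC groups after diesel exhaust and in filtered air, below the sham groups at 53.2 and 41.1 CPM, while Ppard lies between 14.9 and 22.2 CPM in all 12 hearts.

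The estrogen-related receptors shared a pattern in which 1 filtered air TAC heart stood high. Esrra, the most abundant of the 3 per kilobase and itself a known target of PGC-1α, stood at 70.9, 69.7 and 69.0 CPM in diesel TAC hearts, against 115, 147 and 73.6 CPM in diesel sham hearts. The diesel TAC hearts were nearly equal, and the diesel sham hearts ranged widely, down to just above them. The filtered air TAC hearts had 120, 58.1 and 73.1 CPM, against 104, 88.7 and 75.4 CPM in filtered air sham hearts. TAC replicate 1 was above all the shams and the other two TAC hearts were below them. The log2 fold change was −0.68 ± 0.25 after diesel exhaust (adjusted p = 0.170), −0.09 ± 0.25 in filtered air (0.944) and −0.38 ± 0.18 in the average (0.214).

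Esrrb, best known from stem cells and placenta, stood at 23.0, 23.4 and 31.2 CPM in diesel TAC hearts, against 39.7, 36.8 and 34.0 CPM in diesel sham hearts. In filtered air it stood at 41.3, 25.7 and 25.1 CPM in TAC hearts, against 31.4, 35.2 and 34.7 CPM in sham hearts. Again TAC replicate 1 was the highest heart in filtered air and the other two TAC hearts were the lowest.

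Esrrg, a receptor of oxidative muscle, stood at 28.6, 31.9 and 37.8 CPM in diesel TAC hearts, against 50.8, 41.5 and 44.1 CPM in diesel sham hearts. The filtered air TAC hearts had 50.5, 27.6 and 34.9 CPM, against 39.1, 39.9 and 46.7 CPM in filtered air sham hearts. The same heart was again above all the shams. Neither Esrrb nor Esrrg passed in any TAC comparison, with average log2 fold changes of −0.32 ± 0.15 and −0.31 ± 0.15 (adjusted p = 0.198 and 0.211).

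Esrrb and Esrrg moved closely together from heart to heart. Their ratio per kilobase was 0.828 on average over the 12 libraries and ran from 0.738 to 0.957, with group means between 0.808 and 0.840. The ratio of Esrra to Esrrg was looser, at 3.12 with a range of 2.28 to 5.02. The 3 receptors are paralogs, and how reads that map to several places were counted is not given in the sources used here, so some reads may be shared among them.

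Without filtered air TAC replicate 1, the average fall of the estrogen-related receptors and of Ppargc1b passed the threshold. The log2 fold change was then −0.56 for Esrra (adjusted p = 0.0262), −0.46 for Esrrb (0.0353), −0.45 for Esrrg (0.0396) and −0.59 for Ppargc1b (0.0172). In that heart 7 of the 9 hallmark genes lay outside the range of the filtered air sham hearts, among them Acta1, the skeletal actin that rises under load, at 2980 CPM, against 85.3 to 349 CPM in those sham hearts. The other 2 lay inside it: Myh6, the adult myosin heavy chain, had 28700 CPM, against 26900 to 35900 CPM in the sham hearts, and Atp2a2, the calcium pump, had 7280 CPM, against 7060 to 10000 CPM. Its summed ventricular cardiomyocyte markers were the highest of the 6 TAC hearts at 142000 CPM, and those of filtered air TAC replicate 2, the lowest TAC heart for Esrra and Esrrg, were the lowest of all 12 at 88600 CPM. The part of these markers in the spread was not tested.

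The 2 coactivators behaved differently in their scatter. Ppargc1a stood at 104, 159 and 73.4 CPM in diesel TAC hearts, against 136, 299 and 137 CPM in diesel sham hearts. In filtered air it stood at 99.0, 140 and 235 CPM in TAC hearts, against 147, 307 and 146 CPM in sham hearts. In each sham group replicate 2 stood far above the other hearts, and TAC and sham hearts overlapped in both exposures. Across the 12 hearts the highest level was 4.18 times the lowest. The SD of its log2 level within groups was 0.61, above that of 95.8% of the 1000 genes nearest to it in level, and the median SD of all genes tested was 0.36. With this scatter the average log2 fold change of −0.55 ± 0.35 did not pass (adjusted p = 0.422), and its 95% interval of −1.34 to 0.24 includes both a deep fall and no change. Leaving out 1 heart moved it between −0.75, without filtered air TAC replicate 3, and −0.32, without diesel sham replicate 2.

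Ppargc1b stood at 23.4, 38.0 and 31.4 CPM in diesel TAC hearts, against 43.7, 59.7 and 44.4 CPM in diesel sham hearts. All diesel TAC hearts were below all diesel sham hearts. The filtered air TAC hearts had 48.9, 25.9 and 34.4 CPM, against 42.7, 43.0 and 42.2 CPM in filtered air sham hearts. The filtered air sham hearts were nearly equal, and TAC replicate 1 stood above them. The SD of the log2 level of Ppargc1b within groups was 0.32, above that of 78.6% of the 1000 genes nearest in level. The log2 fold change was −0.67 ± 0.22 after diesel exhaust (adjusted p = 0.110), −0.23 ± 0.22 in filtered air (0.798) and −0.45 ± 0.16 in the average (0.0865). With no filter on low counts it passed after diesel exhaust (0.0490) and in the average (0.0452). Per kilobase, Ppargc1a was 2.37 times Ppargc1b on average, from 1.22 to 4.32 times in single hearts.

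Tfam stood at 25.8, 32.2 and 23.0 CPM in diesel TAC hearts, against 31.3, 29.4 and 33.3 CPM in diesel sham hearts. In filtered air it stood at 32.5, 22.6 and 32.7 CPM in TAC hearts, against 36.7, 23.5 and 33.1 CPM in sham hearts. The groups overlapped in both exposures, and the average log2 fold change of −0.15 ± 0.15 did not pass (adjusted p = 0.616, 95% interval −0.46 to 0.16). Of 17 tested partners of TFAM in mitochondrial DNA transcription and replication, edgeR called 0 in any TAC comparison, with medians of −0.30 after diesel exhaust, −0.16 in filtered air and −0.17 in the average. At an unadjusted p under 0.05 they numbered 3, 1 and 5, where 15.9%, 11.1% and 21.6% of all genes were. DESeq2 and limma voom also called 0. Polrmt, the mitochondrial RNA polymerase, had the smallest p of them in the average (log2 −0.45 ± 0.17, adjusted p = 0.110). The 13 protein-coding genes of mitochondrial DNA all had negative estimates and edgeR called 0, with medians of −0.23 after diesel exhaust, −0.34 in filtered air and −0.32 in the average. At an unadjusted p under 0.05 they numbered 0, 2 and 2, beside the same shares of all genes. DESeq2 called 1 in the average, and limma voom called 0. The mitochondrial gene with the smallest p in the average was mt-Nd6, at −0.52 ± 0.16 (adjusted p = 0.0560). The strand setting of the counting is not given in the sources used here, and mt-Nd6 lies on the opposite strand to its neighbours, so its count may hold their reads.

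**Figure D4:**
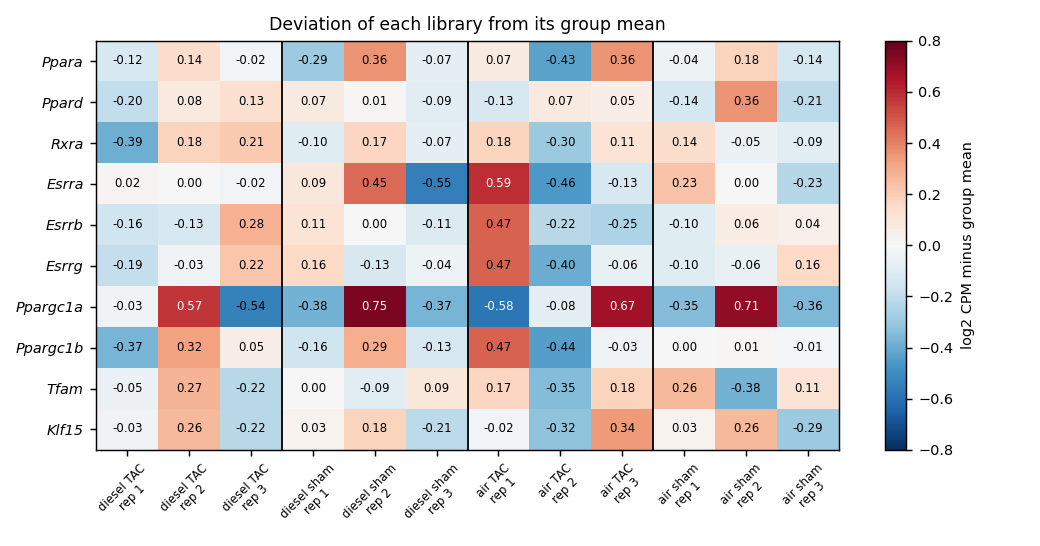
Deviation of each library from its group mean in log2 CPM (colour and printed value) for the 10 regulators, with groups from diesel TAC at the left to filtered air sham at the right. Filtered air TAC replicate 1 is high for Esrra, Esrrb, Esrrg and Ppargc1b (0.59, 0.47, 0.47 and 0.47) and low for Ppargc1a (−0.58), and Ppargc1a has the widest deviations of all rows, up to 0.75.

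The question whether exposure before birth altered these regulators was asked in 4 ways, and none of the 10 genes passed in any. Between diesel and filtered air sham hearts edgeR called 0 of 10 regulators (0% of all genes), with 0 of 10 at an unadjusted p under 0.05, where 3.69% of all genes were. Between diesel and filtered air TAC hearts it called 0 of 10 (0% of all genes), with 0 of 10 at an unadjusted p under 0.05, where 1.87% were. Averaged over the surgeries it called 0 of 10 (0% of all genes), and 0 of 10 were at an unadjusted p under 0.05, where 3.32% were. DESeq2 and limma voom also called 0 of 10 in each.

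The estimates leaned in opposite directions in sham and TAC hearts. In sham hearts 9 of 10 estimates were above 0 after diesel exhaust, from −0.07 to 0.37 with a median of 0.09, and 48.9% of all genes were below 0. Klf15 had the highest, at 0.37 ± 0.21 (95% interval −0.06 to 0.80, adjusted p = 0.996). Ppargc1b was the 1 regulator of 10 with every diesel sham heart above every filtered air sham heart, where 4.00% of all genes separated that way, and its log2 difference was 0.21 ± 0.22. In TAC hearts all 10 estimates were below 0 after diesel exhaust, from −0.49 for Ppargc1a to −0.06 for Rxra, where 51.6% of all genes were below 0. No regulator separated the diesel and filtered air TAC hearts, where 3.76% of all genes separated downward and 3.96% upward. The TAC estimates of Esrra, Esrrb, Esrrg, Ppargc1b and Rxra were above 0 without filtered air TAC replicate 1 (0.09, 0.03, 0.07, 0.04 and 0.03).

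The exposure by surgery interaction asks whether TAC moved a gene by a different amount after diesel exhaust than in filtered air. All 10 estimates were negative, meaning a lower TAC to sham ratio after diesel exhaust, with a median of −0.35, and 52.0% of all genes were negative. None passed: edgeR called 0 of 10 (0% of all genes), with 0 of 10 at an unadjusted p under 0.05, where 2.40% of all genes were, and DESeq2 and limma voom called 0 of 10. The farthest from 0 were Esrra at −0.58 ± 0.35 (95% interval −1.33 to 0.16) and Klf15 at −0.52 ± 0.29 (−1.12 to 0.09), both with an adjusted p of 1.00. Rxra was nearest to 0, at −0.12 ± 0.27. The 10 estimates come from the same 12 hearts and are not 10 separate observations. Without filtered air TAC replicate 1 those of Esrra, Esrrb, Esrrg and Ppargc1b shrank to −0.24, −0.11, −0.06 and −0.18, and that of Klf15 was −0.55. Klf15 thus passed in TAC hearts after diesel exhaust and not in filtered air, and the difference between these effects did not pass its own test.

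Some of the genes that the receptors are known to drive were called lower in TAC hearts, more of them in the average than within an exposure. Of 34 PPAR target genes of the heart tested, 20 were called lower and none higher in the average, with a median log2 fold change of −0.49. After diesel exhaust 11 were called lower (median −0.57) and in filtered air 2 (median −0.33). At an unadjusted p under 0.05 were 23 after diesel exhaust and 13 in filtered air, where 15.9% and 11.1% of all genes were. DESeq2 called 20 and 5 of them, and limma voom 11 and 1. Of all genes tested, 3.91% were called lower in the average, 1.49% after diesel exhaust and 0.220% in filtered air. These shares, and those at an unadjusted p under 0.05, also apply to the target lists below. Ech1, an enzyme for unsaturated fatty acids, averaged 357 ± 41.3 CPM in TAC and 777 ± 36.4 CPM in sham hearts after diesel exhaust, and 479 ± 85.4 CPM in TAC and 801 ± 32.4 CPM in sham hearts in filtered air. Its average log2 fold change was −0.93 ± 0.12 (adjusted p = 3.25e-05). It and Slc27a1, a fatty acid transporter, were the 2 called in filtered air (adjusted p = 0.0381 and 0.0392), and 7 and 6 of the 12 fits that left out 1 heart lost these calls. The count after diesel exhaust was 6 without diesel sham replicate 1, 7 without diesel TAC replicate 2 and 5 without diesel TAC replicate 3. The count in filtered air was 0 without any 1 of the 3 filtered air sham hearts, filtered air TAC replicate 2 or diesel TAC replicate 2, and 1 without filtered air TAC replicate 1 or diesel sham replicate 3.

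Of 39 targets of the estrogen-related receptors and PGC-1 in the citric acid cycle and respiratory chain, all 39 estimates were negative in the average and 15 were called lower, with a median of −0.39. After diesel exhaust 3 were called lower (median −0.49) and in filtered air edgeR called 0 (median −0.28), with 6 at an unadjusted p under 0.05 and 0 called by DESeq2 or limma voom. Sdha, a subunit of succinate dehydrogenase, averaged 805 ± 111 CPM in TAC and 1290 ± 357 CPM in sham hearts after diesel exhaust, and 958 ± 206 CPM in TAC and 1330 ± 155 CPM in sham hearts in filtered air. Its average log2 fold change was −0.58 ± 0.15 (adjusted p = 0.0193), a call lost without filtered air sham replicate 1, filtered air TAC replicate 2, diesel sham replicate 1 (highest adjusted p = 0.0697) or diesel TAC replicate 3. The count moved with single hearts. In the average it was 8, 6 and 6 without filtered air sham replicates 1, 2 and 3, and 3 without filtered air TAC replicate 2. It was 9 and 7 without diesel sham replicates 1 and 3. Leaving out diesel TAC replicate 2 gave 5, and leaving out replicate 3 gave 4. After diesel exhaust it was 6 and 5 without filtered air TAC replicates 1 and 2, 1 without diesel TAC replicate 2 and 0 without diesel TAC replicate 3.

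Of 7 genes that KLF15 is known to activate in mouse tissues, 5 were called lower in the average, 3 after diesel exhaust and 0 in filtered air by edgeR, with medians of −0.64, −0.74 and −0.48. In filtered air 5 had an unadjusted p under 0.05, and DESeq2 and limma voom called 0. Prodh, which starts proline breakdown, averaged 11.2 ± 1.31 CPM in TAC and 23.8 ± 4.62 CPM in sham hearts after diesel exhaust, and 10.5 ± 2.75 CPM in TAC and 17.1 ± 1.69 CPM in sham hearts in filtered air (average log2 −0.90 ± 0.17, adjusted p = 0.00180). Bckdha, a subunit of the enzyme that degrades branched-chain keto acids, averaged 94.4 ± 8.02 CPM in TAC and 159 ± 2.08 CPM in sham hearts after diesel exhaust, and 102 ± 15.7 CPM in TAC and 150 ± 26.0 CPM in sham hearts in filtered air. Its average log2 fold change was −0.65 ± 0.12 (adjusted p = 0.00139). The count after diesel exhaust was 0 without diesel TAC replicate 3, that in filtered air 1 without filtered air TAC replicate 1 or 3, and that in the average 3 without diesel sham replicate 1. No gene of these 3 target lists passed in a comparison of the exposures or in the interaction, with edgeR, DESeq2 or limma voom. Between diesel and filtered air TAC hearts 7 of 34 PPAR targets had an unadjusted p under 0.05, where 1.87% of all genes did. There 32 of the 34 estimates were negative, with a median of −0.27. PPAR targets at that p numbered 0 in sham hearts, 3 averaged over the surgeries and 2 in the interaction (3.69%, 3.32% and 2.40% of all genes). Targets of the estrogen-related receptors and PGC-1 numbered at most 1 in any of these comparisons, and those of KLF15 0.

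**Figure D5:**
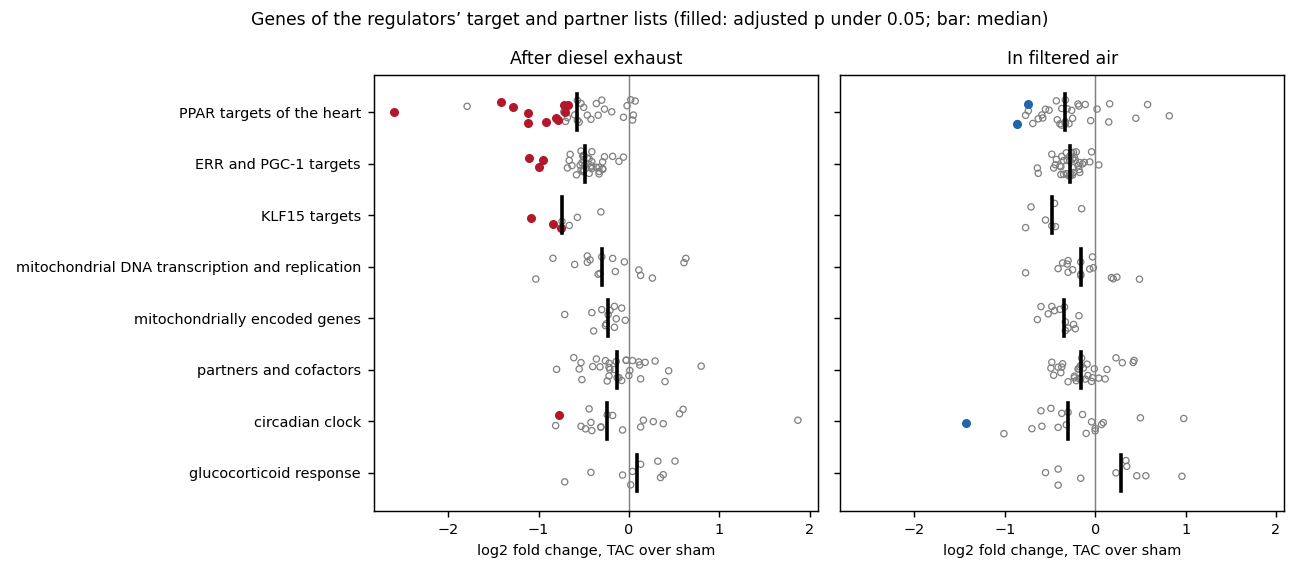
Log2 fold change of TAC over sham for each gene of the target and partner lists, after diesel exhaust (left) and in filtered air (right), with filled points for an adjusted p under 0.05 and bars for the list median. The PPAR targets have 11 filled points after diesel exhaust and 2 in filtered air, and their medians are −0.57 and −0.33.

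Of 32 partners and cofactors of these receptors, 2 were called lower in the average and 0 within either exposure by edgeR, and the median of the list in the average was −0.15. The count in the average is near the share of all genes, of which 3.91% were called lower and 8.01% in either direction. At an unadjusted p under 0.05 were 5 after diesel exhaust and 1 in filtered air, where 15.9% and 11.1% of all genes were. DESeq2 and limma voom called 0 within either exposure. Rxrg, the retinoid X receptor of muscle, averaged 30.2 ± 3.90 CPM in TAC and 46.0 ± 3.08 CPM in sham hearts after diesel exhaust, and 38.1 ± 6.10 CPM in TAC and 53.2 ± 11.3 CPM in sham hearts in filtered air. Its average log2 fold change of −0.55 ± 0.13 (adjusted p = 0.0135) passed in all 12 fits that left out 1 heart. Thrb, a thyroid hormone receptor, fell by 0.61 ± 0.18 (adjusted p = 0.0426), a call that 9 of those 12 fits lost.

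Because Klf15 follows the clock and glucocorticoids, both lists were set beside it. Of 19 clock genes 5 were called lower in the average, namely Dbp, Ciart, Cry2, Per3 and Tef, where 3.91% of all genes were. The list did not move as 1: 11 of the 19 estimates were negative, with a median of −0.19. Within each exposure 1 clock gene was called lower. Dbp, a clock output gene, stood at 28.5, 31.0 and 31.6 CPM in diesel TAC hearts, against 51.8, 50.1 and 53.4 CPM in diesel sham hearts, and at 34.2, 28.8 and 32.4 CPM in TAC hearts, against 56.5, 42.7 and 44.9 CPM in sham hearts, in filtered air. All 6 TAC hearts were below all 6 sham hearts (average log2 −0.68 ± 0.12, adjusted p = 9.14e-04). Ciart, a clock repressor, fell by 1.12 ± 0.21 (adjusted p = 0.00135). Dbp and Ciart passed in all 12 fits that left out 1 heart, and Cry2 and Per3 in 5 and 4 of them. Leaving out 1 heart brought the count to 2 for filtered air sham replicate 1, filtered air TAC replicate 1, diesel sham replicate 1 or diesel TAC replicate 3, and to 3 for filtered air sham replicate 2, filtered air TAC replicate 2, diesel sham replicate 3 or diesel TAC replicate 2. Of 10 glucocorticoid response genes edgeR, DESeq2 and limma voom called 0. In the average 4 had an unadjusted p under 0.05, where 21.6% of all genes did, and the median was 0.18. Of the 10 log2 fold changes 4 were negative, among them that of Fkbp5, a standard readout of that hormone, at −0.20 ± 0.21. The part of the clock genes, and of the hour of harvest, in the fall of Klf15 was not tested.

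The genes whose pattern over the 12 libraries was most like that of Klf15, among 9756 genes with a mean of at least 5 CPM, were Usp2, Dgat2 and Herpud1. Likeness is the root mean square difference of log2 CPM after centring each gene, which was 0.12, 0.13 and 0.15 for them, where Klf15 itself spread by 0.47 about its mean. Usp2, a deubiquitinating enzyme, stood at 99.7, 120 and 84.4 CPM in diesel TAC hearts, against 175, 203 and 144 CPM in diesel sham hearts, and at 96.1, 80.5 and 115 CPM in TAC hearts, against 161, 173 and 136 CPM in sham hearts, in filtered air. Its TAC hearts were below the sham hearts in both exposures. Dgat2 makes triglyceride and Herpud1 acts in protein quality control of the endoplasmic reticulum. The RefSeq windows of Usp2 and Herpud1 held no CACGTG, and Dgat2 had no window listed. Nearest to Ppargc1b were Rad51d, Slc25a34 and Extl1 (0.13, 0.13 and 0.15, where Ppargc1b spread by 0.37). For Ppargc1a the nearest genes, Dusp18, Amd2 and Slc25a33, were farther away (0.29, 0.33 and 0.33, where Ppargc1a spread by 0.59).

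Some markers of cell types moved with the operation too, where 3.91% of all genes were called lower and 4.10% higher in the average. Of 15 ventricular cardiomyocyte markers 5 were called lower and 1 higher in the average, with a median of −0.23, and 3 in all were called without filtered air sham replicate 1. Their summed level ran from 99300 to 106000 CPM in diesel TAC and from 118000 to 157000 CPM in diesel sham hearts, and from 88600 to 142000 CPM in TAC and from 119000 to 160000 CPM in sham hearts in filtered air. The regulators' median of −0.38 stands beside that −0.23. Of 14 fibroblast markers 9 were called higher and none lower, with summed levels from 3640 to 4240 CPM in diesel TAC and from 1710 to 2310 CPM in diesel sham hearts, and from 2550 to 4090 CPM in TAC and from 1800 to 1970 CPM in sham hearts in filtered air. The macrophage list had 4 of 12 markers called higher. That count was 8 without diesel sham replicate 2, and 2 without filtered air sham replicate 1 or 3, filtered air TAC replicate 2 or 3, diesel sham replicate 1 or any 1 of the diesel TAC hearts. The macrophage sums ran from 442 to 464 CPM in diesel TAC and from 244 to 463 CPM in diesel sham hearts, and from 345 to 532 CPM in TAC and from 234 to 320 CPM in sham hearts in filtered air. Of 12 endothelial markers 1 was called higher, and of 9 adipocyte markers 2 were tested and neither passed. Of 10 smooth muscle and pericyte markers 2 were called higher and 2 lower, with 2 in all called without diesel sham replicate 3. Their median log2 fold change in the average was 0.30, with 2 of 10 estimates negative. The summed levels below weigh abundant markers most and need not follow this median. The endothelial sums ran from 1130 to 1400 CPM in diesel TAC and from 1040 to 1150 CPM in diesel sham hearts, and from 1200 to 1440 CPM in TAC and from 1090 to 1160 CPM in sham hearts in filtered air. Those of smooth muscle and pericytes ran from 684 to 766 CPM in diesel TAC and from 747 to 878 CPM in diesel sham hearts, and from 719 to 814 CPM in TAC and from 779 to 849 CPM in sham hearts in filtered air. The adipocyte sums ran from 262 to 454 CPM in diesel TAC and from 291 to 361 CPM in diesel sham hearts, and from 372 to 456 CPM in TAC and from 296 to 355 CPM in sham hearts in filtered air. Fabp4 was in both the adipocyte and the endothelial list and entered both sums, so the adipocyte sums are not of adipocyte genes alone. Ucp1, of the adipocyte list, was at 0 in all 12 libraries and no other marker was. The part of cell composition in the levels of the regulators was not tested.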

How the data were processed

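Raw counts per Entrez gene number were deposited by the authors as 1 table for 12 libraries. Per the submitters' processing notes, cutadapt 1.6, Subread 1.4.2 and featureCounts were used, with build mm10. Per the labels' protocols, total RNA was depleted of rRNA, fragmented and sequenced on an Ion instrument, 4 samples per run. The sources used here do not give the strand setting, the annotation or how multiply mapped reads were treated.

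Symbols came from RefSeq for 25275 genes and from GENCODE M21 for 18. The 1886 genes without one held 4.19% of counts and stayed in the fit. Groups came from the titles, and replicates were numbered in the order listed. No library was a copy of another. In R 4.3.3, edgeR 4.0.16 was run on the counts with TMM factors (0.909 to 1.11), filterByExpr (minimum 10) and a robust quasi-likelihood fit of 4 group means, with 8 residual degrees of freedom. Each comparison had its own Benjamini-Hochberg adjustment over the 13626 genes, with a threshold of 0.05. Log2 fold changes have standard errors (SE), and CPM have standard deviations (SD). The edgeR fit was tested on counts simulated with known changes, for TAC against sham in filtered air and in the average. The simulation gave every gene the same variability, so it does not cover genes as variable as Ppargc1a. Its changes were larger than every average log2 fold change of the 10 regulators. Alternatives were DESeq2 1.42.0 (test and size factors), limma voom 3.58.1, no filter, no mitochondrially encoded genes, only the groups compared, and leaving out each library.

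The 10 regulators and all gene lists were chosen with earlier results of these data known. From each list, up to 4 genes with the smallest p past the threshold could be named, or up to 2 where none passed. Genes with a pattern most like a regulator were named for the 3 regulators whose group means ranged widest. Fkbp5 and Tef fall outside these rules and were chosen after their values were seen.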

Additional observations from a re-analysis of the deposited data

How the results depend on the processing

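No paired analysis was possible because replicates carry only their place in the list and no number shared across groups. The calls and directions of the regulators were recomputed under 6 changes of processing and with each of the 12 libraries left out, and 1153 of these values kept their direction and their side of the threshold. The 9 calls gained and 5 lost are given beside the genes. The count of all genes called for TAC in filtered air was 113, and it was 247 with no filter on low counts, 258 with DESeq2, 74 with limma voom and 39 to 144 with 1 library left out. After diesel exhaust it was 442, and 676 with DESeq2 and 186 to 532 with 1 library left out. In the average it was 1091, and 642 to 1219 with 1 library left out. The count of regulators called after diesel exhaust was 1, and 3 with no filter, 2 with DESeq2 and 0 to 2 with 1 library left out, and in the average it was 2, and 1 to 6 with 1 library left out. Where edgeR called 0 genes for exposure in TAC hearts and for the interaction, 1 gene was called in each with no filter and with DESeq2. The sign of the estimate changed in 63 recomputed values, none of them called. Not all main estimates concerned were near 0: that of Ppargc1a was −0.42 in the interaction and −0.34 for TAC in filtered air. Of the 63 values, 59 came from leaving out 1 library. The other 4 are Ppard in the average, at 0.00 without mitochondrially encoded genes, with no filter and with limma voom, and Rxra for exposure averaged over the surgeries, at 0.00 without mitochondrially encoded genes. The cause was not tested. For TAC against sham in the average the log2 fold changes then ran, by gene, Ppard −0.05 to 0.10. For TAC against sham after diesel exhaust the log2 fold changes then ran, by gene, Ppard −0.14 to 0.03. For TAC against sham in filtered air the log2 fold changes then ran, by gene, Esrra −0.44 to 0.11, Esrrg −0.42 to 0.03, Ppard −0.04 to 0.26, Ppargc1a −0.74 to 0.11 and Tfam −0.26 to 0.07. For diesel exhaust against filtered air in sham hearts the log2 fold changes then ran, by gene, Ppara −0.17 to 0.16, Ppard −0.05 to 0.25, Ppargc1a −0.54 to 0.38, Rxra −0.02 to 0.12 and Tfam −0.16 to 0.15. For diesel exhaust against filtered air in TAC hearts the log2 fold changes then ran, by gene, Esrra −0.47 to 0.09, Esrrb −0.40 to 0.03, Esrrg −0.38 to 0.07, Klf15 −0.29 to 0.04, Ppard −0.14 to 0.02, Ppargc1b −0.43 to 0.04 and Rxra −0.20 to 0.11. For diesel exhaust against filtered air averaged over the surgeries the log2 fold changes then ran, by gene, Esrra −0.09 to 0.21, Esrrb −0.13 to 0.08, Esrrg −0.13 to 0.10, Ppard −0.06 to 0.09, Ppargc1b −0.11 to 0.13, Rxra −0.07 to 0.08 and Tfam −0.14 to 0.02. For the interaction the log2 fold changes then ran, by gene, Ppargc1a −0.87 to 0.05, Rxra −0.25 to 0.06 and Tfam −0.28 to 0.04. Each group had 3 hearts, and Ppargc1a varied most between hearts of a group among the 10 regulators, with a biological coefficient of variation of 40.9%, against a median of 24.1% over all genes tested.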
